A study of Mus musculus with 6 samples.

Results

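The genes described here encode enzymes and regulators of cholesterol and fatty acid synthesis: 29 genes, taken by their symbols from a table of read counts for 25140 genes, and all 29 had enough counts to be tested (14334 genes were tested in all). Expression was measured by RNA-seq in primary cardiac fibroblasts from the hearts of adult C57BL/6 mice, the cells that make the connective tissue of the heart, at passage 1. Cells were grown in medium with 25 mM glucose and 10% serum, held for 16 h in 1% serum, and then given TGFβ at 10 ng/mL or vehicle for 24 h, with 3 libraries per group (vehicle A to C and TGFβ A to C, lettered in the order of the table's columns, so that a shared letter does not pair libraries). Both groups therefore shared the strain, the medium, the lowered serum and the time in culture, and differed by TGFβ, the cytokine that turns fibroblasts into contractile, matrix-producing myofibroblasts. The 16 h in 1% serum is from the labels, whereas the study's methods give 24 h before treatment and also 1% serum during it. The labels and the study's methods call the cells cardiac fibroblasts, whereas the study's results text speaks of mouse embryonic fibroblasts. The methods call the 3 libraries of a group biological replicates without saying whether they came from separate animals or cultures, so p-values measure the spread between these samples only. Libraries held 27851677 to 31072338 counts.

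Cells build cholesterol from acetyl-CoA. The mevalonate arm makes farnesyl diphosphate, squalene synthase commits it to sterols, and a chain of microsomal enzymes turns the first sterol, lanosterol, into cholesterol. Fatty acids are built from the same acetyl-CoA by acetyl-CoA carboxylase and fatty acid synthase, then lengthened and desaturated. The genes of both pathways are classical targets of the SREBP transcription factors, which are held in the endoplasmic reticulum by Scap and Insig proteins while membrane sterol is high and are released by proteolysis when it falls. In fibroblasts these lipids go mainly into membranes.

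SREBP binds sterol regulatory elements together with NF-Y, which binds CCAAT boxes, and Sp1, which binds GC boxes. The 180 bases before the RefSeq start of 4 members (build GRCm38.p6) are shown because they span the values described below. *Acly* passed the test, *Hmgcs1* holds the only sterol element letters found in a member's window, and *Mvk* and *Fasn* had overlapping groups. Capitals mark TCACNCCAC (the core of a sterol regulatory element), CCAAT and GGGCGG, each on either strand, written 5′ to 3′ in the direction of the gene.
*Hmgcs1* (chr13:119690171-119690350, plus strand): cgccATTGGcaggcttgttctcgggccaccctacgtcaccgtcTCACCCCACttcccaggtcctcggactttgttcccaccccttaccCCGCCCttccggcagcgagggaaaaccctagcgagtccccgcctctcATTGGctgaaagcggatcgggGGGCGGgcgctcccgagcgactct
*Acly* (chr11:100528001-100528180, minus strand): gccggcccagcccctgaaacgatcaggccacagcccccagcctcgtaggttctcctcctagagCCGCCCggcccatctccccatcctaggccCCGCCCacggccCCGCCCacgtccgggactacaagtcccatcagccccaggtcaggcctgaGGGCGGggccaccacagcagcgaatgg
*Mvk* (chr5:114444089-114444268, plus strand): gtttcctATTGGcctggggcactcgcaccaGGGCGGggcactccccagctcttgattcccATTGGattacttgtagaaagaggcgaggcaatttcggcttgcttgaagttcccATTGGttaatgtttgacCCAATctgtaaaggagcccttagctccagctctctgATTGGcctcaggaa
*Fasn* (chr11:120824548-120824727, minus strand): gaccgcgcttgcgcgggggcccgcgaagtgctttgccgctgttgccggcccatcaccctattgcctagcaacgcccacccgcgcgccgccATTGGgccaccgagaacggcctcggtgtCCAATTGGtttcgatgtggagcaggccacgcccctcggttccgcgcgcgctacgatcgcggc
RefSeq promoter windows (250 bases before to 50 after the start) were at hand for 22 of the 29 members. Those without a window were *Stard4*, *Scd1*, *Fads1* and, among genes that passed the test, *Fdps*, *Fdft1*, *Sqle* and *Scd2*. TCACNCCAC occurred in 1 of the 22 (4.55%), *Hmgcs1*, against 1.44% of all 27025 genes with a window. CCAAT occurred in 18 of the 22 (81.8%) against 41.1% of all genes, GGGCGG in 18 of the 22 against 38.2%, and the E-box CACGTG in 4 of the 22 (18.2%) against 8.09%. Windows were also at hand for 44 genes of the related pathway lists described below. Among these, TCACNCCAC occurred in 6.82% and CACGTG in 20.45%, both above the members' shares. CCAAT occurred in 61.4% and GGGCGG in 68.2%, both below the members' shares. CCAAT and GGGCGG letters stood in windows of genes that passed the test and of genes that did not: *Mvk* had 5 CCAAT matches and *Fasn* had 3 in the bases printed, and *Acly* had 0 CCAAT and 4 GGGCGG matches in them, with a CCAAT match elsewhere in its longer window. *Acaca*, which passed the test, and *Elovl6*, which did not, had none of the searched letters in their windows. These are letter matches, not measured sites.

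TGFβ was associated with small rises in part of the module. Of the 29 genes, 8 (27.6%) were called higher in the TGFβ libraries (edgeR, quasi-likelihood, Benjamini-Hochberg adjusted p of 0.05), where 20.5% of all tested genes were called higher, and 0 were called lower, where 20.1% of all tested genes were. At an unadjusted p under 0.05 the counts were 12 higher and 1 lower, where 24.9% and 24.1% of all tested genes were. DESeq2 called 8 higher and 0 lower (16.2% and 16.4% of all genes it tested), and limma-voom also called 8 higher and 0 lower (20.6% and 20.0%). The share called higher is near that of all genes. The log2 fold changes (TGFβ over vehicle) ran from -0.15 to 0.40 with a median of 0.14, beside a median of -0.0013 over all tested genes, and 24 of the 29 were above 0 (19 of 29 with upper quartile scaling and 17 of 29 without vehicle C). In 11 members every TGFβ library was above every vehicle library (27.2% of all tested genes), and in 1, *Sc5d*, every TGFβ library was below (26.1% of all tested genes). The 8 genes called were *Idi1*, *Fdps*, *Fdft1*, *Sqle*, *Msmo1*, *Acly*, *Acaca* and *Scd2*. Their count depended on single libraries: it was 3 without vehicle B (15.4% of all tested genes were then called higher), 2 without vehicle C (17.3%), 1 without TGFβ A (16.4%), 1 without TGFβ B (16.4%), 9 without vehicle A (18.0%) and 9 without TGFβ C (18.6%). The median of the 29 log2 fold changes fell to 0.025 without vehicle C and lay between 0.094 and 0.19 without any other library.

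**Figure D1:**
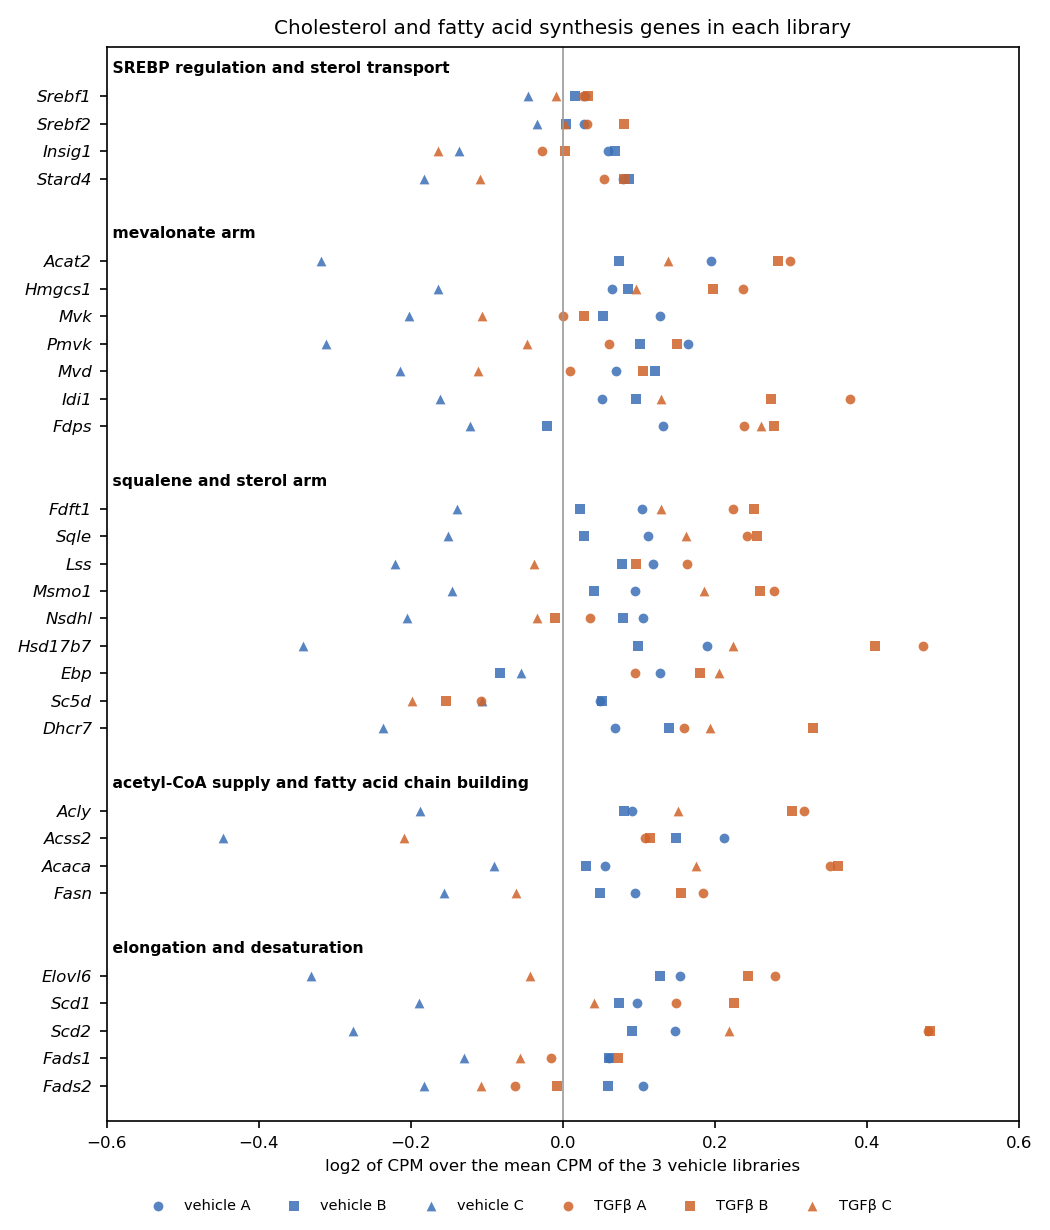
Level of each of the 29 genes in each library, as log2 of the CPM (counts scaled to library size) over the mean of the 3 vehicle libraries, grouped by role; blue symbols are vehicle and orange symbols TGFβ, and the symbol's shape gives the library's letter. Vehicle C (blue triangles) is the lowest vehicle library in 28 of the 29 genes and TGFβ C the lowest TGFβ library in 26.

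One library in each group stood apart. Vehicle C was below the mean of its group in 29 of 29 members and was the lowest vehicle library in 28 (38.2% of all tested genes), with a median deviation of -0.18 on the log2 scale. TGFβ C was below its group's mean in 27 of 29 members and lowest in 26 (36.6% of all tested genes), with a median deviation of -0.097. Over all tested genes the median deviation of these libraries was -0.0033 and 0.0020. The summed level of the 29 genes was 6713, 6566 and 5500 CPM in vehicle A, B and C, and 7323, 7382 and 6558 CPM in TGFβ A, B and C, so that TGFβ C lay below vehicle A and B. The same libraries had the highest summed level of 8 endothelial markers, at 435.7, 495.9 and 672.7 CPM in vehicle A, B and C and 400.0, 444.4 and 548.5 CPM in TGFβ A, B and C. *Tek* alone of these went the other way, lowest in both C libraries (74.6 and 83.8 CPM). Of these markers 0 of 8 were called between the groups (DESeq2 and limma-voom also called 0, and 0 had an unadjusted p under 0.05). Of all tested genes, edgeR called 20.5% higher and 20.1% lower. Leukocyte markers (7 of 8 in the table) summed to 248.2 to 357.6 CPM in vehicle and 212.7 to 317.5 CPM in TGFβ libraries, again highest in both C libraries. Of the 6 tested, 1 was called lower, beside 20.1% of all tested genes. The sums of fibroblast markers, at 53050, 58690 and 62910 CPM in vehicle and 49540, 52680 and 55460 CPM in TGFβ libraries, and of adipocyte markers were also highest in both C libraries. Single markers did not all follow these sums. The fibroblast marker *Vim* (3083 and 2723 CPM) and the adipocyte marker *Lipe* (7.34 and 6.81 CPM) were lowest in vehicle C and TGFβ C. Among the tested adipocyte markers, *Fabp4* alone was highest in both C libraries. *Plin4* was highest in vehicle A and TGFβ A, and *Pparg* in vehicle B and TGFβ B. The part of any of these cell types in the levels of the synthesis genes was not tested. The bulk libraries cannot separate fewer cells of a type from less RNA per cell.

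**Figure D2:**
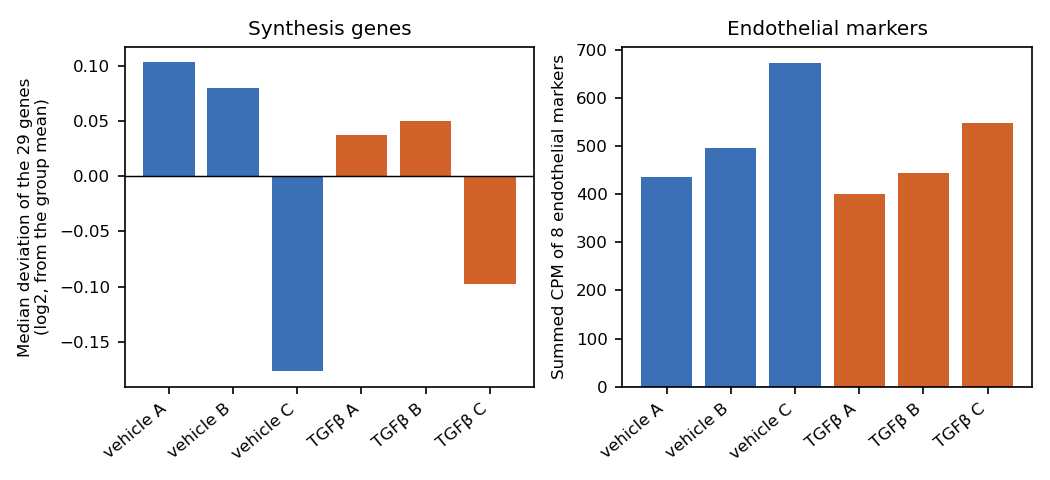
Left, the median deviation of the 29 genes from their group mean in each library (log2); right, the summed CPM of 8 endothelial markers in each library; blue bars are vehicle and orange bars TGFβ. Vehicle C has the lowest deviation (-0.18) and the highest marker sum (672.7 CPM), and TGFβ C shows the same order within its group (-0.097 and 548.5 CPM).

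The fibroblast markers were the most abundant list, with 7 of 9 called lower with TGFβ, where 20.1% of all tested genes were. *Col1a1*, the most abundant of them, and *Col1a2* were not called (log2 fold changes of 0.23 and 0.13, edgeR). For *Col1a1* the adjusted p was 0.0550 with edgeR, and the gene was called higher by DESeq2 (0.00929) and limma-voom (0.0369). Smooth muscle and pericyte markers (6 genes) summed to 62.6 to 90.6 CPM in vehicle and 77.6 to 130.8 CPM in TGFβ libraries. Of the 6, 1 was called higher, where 20.5% of all tested genes were. It was the pericyte proteoglycan gene *Cspg4*, whose log2 fold change was 1.45 (adjusted p = 6.14e-04, edgeR). The cardiomyocyte genes *Myh6*, *Tnni3*, *Actn2*, *Ryr2* and *Myl2* were under 1 CPM in every library, and the 7 genes of that list summed to 38.6 to 59.7 CPM in vehicle and 27.4 to 40.6 CPM in TGFβ libraries. Nearly all of that sum was *Tnnt2*, at 58.3, 37.6 and 44.4 CPM in vehicle A, B and C and 39.5, 26.6 and 35.9 CPM in TGFβ A, B and C. *Tnnt2* was not called by edgeR (adjusted p = 0.0822) and was called lower by DESeq2 (adjusted p = 0.0259). Adipocyte markers matter here because fat cells hold much lipogenic mRNA. Of these, *Adipoq*, *Plin1* and *Cfd* were under 1 CPM in every library. The 7 of 10 markers in the table summed to 54.8 to 73.4 CPM in vehicle and 30.2 to 43.3 CPM in TGFβ libraries. Most of this was *Fabp4*, at 36.4, 34.9 and 54.9 CPM in vehicle A, B and C and 18.1, 20.9 and 31.4 CPM in TGFβ A, B and C. Of the 4 tested, 3 were called lower, where 20.1% of all tested genes were. The part of these markers in the synthesis genes' levels was not tested. The treatment itself was visible: *Acta2*, which encodes smooth muscle actin, rose by 1.03 ± 0.080 (log2 fold change ± SE) and *Postn*, which encodes the matrix protein periostin, by 1.55 ± 0.12. Beside these changes, those of the synthesis genes were small.

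The regulators of the pathway did not pass the test. *Srebf2* encodes the SREBP form that acts mainly on cholesterol genes, and *Srebf1* encodes the other forms, whose targets include fatty acid genes. *Srebf2* stood at 304.2, 299.3 and 291.5 CPM in vehicle A, B and C and at 305.0, 315.3 and 298.8 CPM in TGFβ A, B and C. *Srebf1* stood at 134.8, 133.6 and 128.0 CPM in vehicle and 134.6, 135.2 and 131.3 CPM in TGFβ libraries. The groups overlapped for both, with log2 fold changes of 0.04 (95% interval -0.058 to 0.14) and 0.02 (-0.073 to 0.11). *Insig1*, whose protein retains SREBP and is itself an SREBP target, was at 299.3 to 344.9 CPM in vehicle and 293.6 to 329.6 CPM in TGFβ libraries, a log2 fold change of -0.06 (-0.22 to 0.10). *Stard4*, a carrier of sterol between membranes, had a log2 fold change of 0.01 (-0.18 to 0.20). None of these 4 was called by edgeR, DESeq2 or limma-voom, and 0 had an unadjusted p under 0.05. Over all tested genes, edgeR called 20.5% higher and 20.1% lower, and its unadjusted p was under 0.05 for 24.9% and 24.1%. *Rai1* overlaps *Srebf1* on the opposite strand with 34.5% as many counts, and since the strand setting of the counting is not given in the sources used here, a part of the reads of *Srebf1* could belong to it.

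In the mevalonate arm 2 of 7 genes rose, a share near the 20.5% of all tested genes. *Fdps*, the synthase of farnesyl diphosphate, stood at 22.8, 20.5 and 19.1 CPM in vehicle A, B and C and at 24.5, 25.2 and 24.9 CPM in TGFβ A, B and C. The TGFβ libraries lay close together and above all vehicle libraries, a log2 fold change of 0.26 ± 0.070 (SE, adjusted p = 0.0204). *Idi1*, the isomerase that makes the reactive isoprene unit, stood at 24.5, 25.2 and 21.1 CPM in vehicle and 30.6, 28.5 and 25.8 CPM in TGFβ libraries. Its groups were apart by the narrow gap between vehicle B and TGFβ C, and its log2 fold change was 0.26 ± 0.088 (adjusted p = 0.0451). The call of *Fdps* was lost without vehicle B (adjusted p = 0.0662), vehicle C (0.0516), TGFβ A (0.0503) or TGFβ B (0.0644). That of *Idi1* was lost without vehicle A (0.0709), vehicle C (0.111), TGFβ A (0.142) or TGFβ B (0.105), and with upper quartile scaling (0.0542) or DESeq2 (0.0504). *Idi1* and *Fdps* were also the members with the lowest level per kb of longest transcript, at 7.79 and 7.03 CPM per kb in vehicle. Of the 75-base windows of *Idi1*, 20.7% also occur in other genes, among them the pseudogene *Gm13502*, so the count of *Idi1* is uncertain. Of the windows of *Fdps*, 9.24% also occur in other genes.

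*Hmgcs1*, the synthase at the entry of the arm and the gene whose printed promoter holds the sterol element letters, stood at 396.6, 402.4 and 338.3 CPM in vehicle and 446.8, 434.7 and 405.3 CPM in TGFβ libraries. Vehicle B and TGFβ C differed by under 3 CPM, and the gene was not called, with a log2 fold change of 0.18 ± 0.075 (adjusted p = 0.0939). *Acat2*, an acetyl-CoA acetyltransferase of the first step, had a log2 fold change of 0.24 (95% interval -0.038 to 0.52) with overlapping groups. Of the windows of *Acat2*, 40.7% also occur in other genes, among them *Acat3*, which had 206 counts in all. The other kinase and decarboxylase steps lay near 0, with log2 fold changes of -0.02 (-0.22 to 0.17) for *Mvk*, 0.06 (-0.22 to 0.33) for *Pmvk* and 0.00 (-0.21 to 0.22) for *Mvd*.

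In the squalene and sterol arm 3 of 9 genes rose, beside 20.5% of all tested genes. *Fdft1*, squalene synthase, stood at 146.1, 138.1 and 123.4 CPM in vehicle and 158.7, 161.8 and 148.6 CPM in TGFβ libraries, a log2 fold change of 0.20 ± 0.067 (adjusted p = 0.0440). *Sqle*, squalene epoxidase, stood at 189.8, 179.1 and 158.1 CPM in vehicle and 207.7, 209.6 and 196.5 CPM in TGFβ libraries, a log2 fold change of 0.22 ± 0.069 (adjusted p = 0.0354). *Msmo1*, an oxidase that removes methyl groups from early sterols, stood at 223.2, 215.0 and 188.9 CPM in vehicle and 253.4, 250.1 and 237.7 CPM in TGFβ libraries, a log2 fold change of 0.24 ± 0.066 (adjusted p = 0.0216). In all 3 genes vehicle A was the highest vehicle library, vehicle C the lowest, and the groups did not overlap. *Msmo1* lost its call without TGFβ A (0.0684) or TGFβ B (0.0636). *Sqle* lost it without vehicle B (0.0742), vehicle C (0.0647), TGFβ A (0.0957) or TGFβ B (0.102), and *Fdft1* without vehicle B (0.0892), vehicle C (0.0960), TGFβ A (0.112) or TGFβ B (0.128) and with upper quartile scaling (0.0564). *Fdft1* overlaps *Ctsb*, which encodes a lysosomal protease, on the opposite strand. *Ctsb* held 527% as many counts and fell by 0.40 on the log2 scale (adjusted p = 0.0249, edgeR; 0.0634 to 0.0928 without vehicle C, TGFβ A or TGFβ B). Its part in the counts of *Fdft1* was not tested. Of the windows of *Fdft1*, 6.07% also occur in other genes.

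*Hsd17b7*, a ketosteroid reductase of sterol demethylation, had a larger log2 fold change than these genes but a wider spread, at 129.3, 121.5 and 89.5 CPM in vehicle and 157.5, 150.7 and 132.4 CPM in TGFβ libraries. Vehicle C was far below the other vehicle libraries, and the log2 fold change of 0.37 ± 0.13 had an adjusted p of 0.0562. DESeq2 (0.0161), edgeR without a filter on low counts (0.0233), and edgeR without vehicle A (0.0337) or TGFβ C (0.0466) called it higher. *Sc5d*, a desaturase near the end of the pathway, went the other way, at 187.0, 187.2 and 167.9 CPM in vehicle and 167.7, 162.5 and 157.5 CPM in TGFβ libraries. Vehicle C and TGFβ A differed by under 1 CPM, and the log2 fold change was -0.15 ± 0.054 (adjusted p = 0.0563). Upper quartile scaling (0.0303), a filter of 1 CPM in 3 libraries (0.0379) and leaving out vehicle C (0.0147) called it lower. *Dhcr7*, the reductase of the last step, had a log2 fold change of 0.23 (95% interval 0.0064 to 0.45, adjusted p = 0.0940), and *Ebp*, a sterol isomerase, 0.16 (0.0090 to 0.31, adjusted p = 0.0862, and 0.0182 without vehicle A). *Lss*, which closes the rings of lanosterol, was at 0.08 (-0.14 to 0.29) and *Nsdhl*, a dehydrogenase of sterol demethylation, at 0.00 (-0.19 to 0.18).

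**Figure D3:**
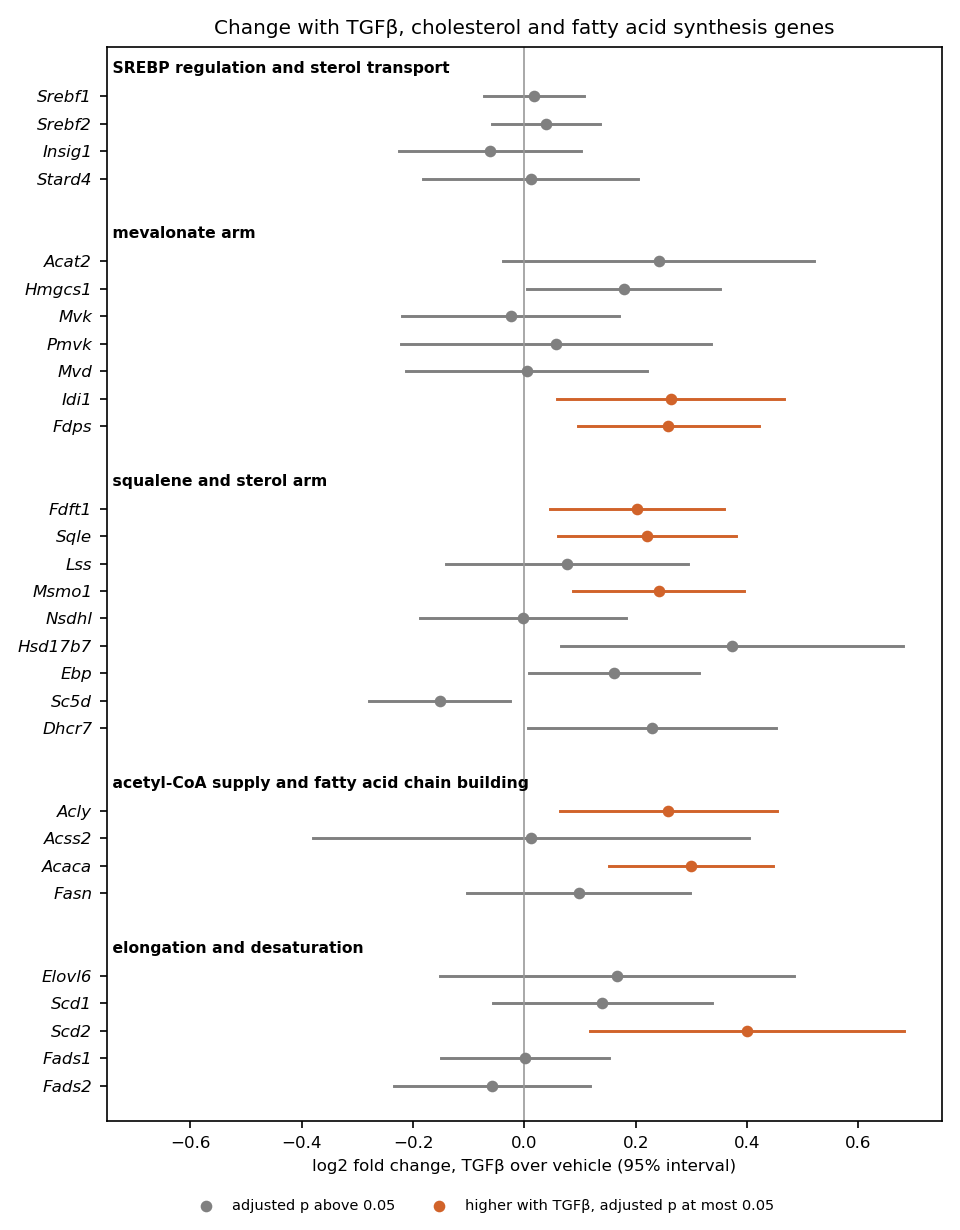
Log2 fold change (TGFβ over vehicle) of each of the 29 genes with its 95% interval from edgeR, grouped by role; orange marks genes called higher at an adjusted p of 0.05 and grey the others. The values run from -0.15 (*Sc5d*) to 0.40 (*Scd2*), and the 4 regulatory and transport genes lie between -0.06 and 0.04.

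Of the enzymes that supply acetyl-CoA and build the chain, 2 of 4 rose, beside 20.5% of all tested genes. *Acly*, which makes cytosolic acetyl-CoA from citrate, stood at 426.5, 423.3 and 351.3 CPM in vehicle and 498.8, 493.3 and 444.8 CPM in TGFβ libraries, a log2 fold change of 0.26 ± 0.084 (adjusted p = 0.0410). *Acaca*, the acetyl-CoA carboxylase that commits acetyl-CoA to fatty acids, stood at 84.7, 83.1 and 76.5 CPM in vehicle and 103.9, 104.7 and 91.9 CPM in TGFβ libraries. The lowest TGFβ library of *Acaca* was clear of the highest vehicle library, and its log2 fold change was 0.30 ± 0.064 (adjusted p = 0.00746). *Acaca* alone among the 29 genes was called in all 12 alternatives, with adjusted p from 0.00109 to 0.0294. *Acly* lost its call without vehicle B (0.0547), vehicle C (0.0740), TGFβ A (0.119) or TGFβ B (0.113). Of the windows of *Acaca*, 47.4% also occur in other genes, among them *Gm5182*, which held 11 counts in all. The share found in *Gm5182* alone was not computed. *Fasn*, fatty acid synthase, stood at 441.5, 427.7 and 371.1 CPM in vehicle and 469.8, 460.6 and 396.4 CPM in TGFβ libraries, with overlapping groups and a log2 fold change of 0.10 (95% interval -0.10 to 0.30). *Acss2*, which makes acetyl-CoA from acetate, was at 0.01 (-0.38 to 0.40), the widest interval of the 29 genes, with 37.7 CPM in vehicle C against 59.5 and 57.0 CPM in vehicle A and B. *Ggt7* overlaps it on the opposite strand with 50.9% as many counts.

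Among the elongation and desaturation genes 1 of 5 rose, a share near that 20.5%. *Scd2*, a stearoyl-CoA desaturase, makes monounsaturated fatty acids and had the highest level of the module, at 1581, 1520 and 1179 CPM in vehicle and 1992, 1995 and 1661 CPM in TGFβ libraries. Vehicle C was far below the other vehicle libraries, TGFβ C lay between vehicle A and the other TGFβ libraries, and the log2 fold change was 0.40 ± 0.12 (adjusted p = 0.0318). The call was lost without vehicle B (0.0527), vehicle C (0.0525), TGFβ A (0.0985) or TGFβ B (0.0967). *Scd1*, the paralogue of *Scd2*, had overlapping groups at 562.2, 553.3 and 460.9 CPM in vehicle and 582.5, 614.1 and 540.6 CPM in TGFβ libraries, a log2 fold change of 0.14 (95% interval -0.057 to 0.34). *Elovl6*, which lengthens palmitate to stearate, was at 0.17 (-0.15 to 0.48). *Fads1* and *Fads2*, the desaturases of polyunsaturated fatty acids, were at 0.00 (-0.15 to 0.15) and -0.06 (-0.23 to 0.12). Per kb of longest transcript, the vehicle level of *Scd2* was 262 CPM per kb, followed by *Fads1* at 130, *Insig1* at 122, *Hmgcs1* at 109 and *Scd1* at 109.

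Ratios of related enzymes within a library need no scaling, and 4 were compared. The count ratio of *Scd2* to *Scd1* was 2.81, 2.75 and 2.56 in vehicle A, B and C and 3.42, 3.25 and 3.07 in TGFβ A, B and C. The groups did not overlap, and the log2 ratio was 0.26 higher with TGFβ (95% interval 0.094 to 0.43; two-sided exact permutation p = 0.1, the smallest that 3 against 3 allows, and 0.3 after adjustment over the 4 pairs). Of the windows of *Scd1* and *Scd2*, 3.24% and 1.80% also occur in other genes, among them each other. The ratios of *Fads2* to *Fads1* (log2 difference -0.056, interval -0.14 to 0.028), *Srebf1* to *Srebf2* (-0.021, -0.062 to 0.020) and *Acss2* to *Acly* (-0.23, -0.59 to 0.13) overlapped between groups, each with an exact permutation p of 0.3. The interval for *Srebf1* to *Srebf2* was the narrowest of the 4.

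**Figure D4:**
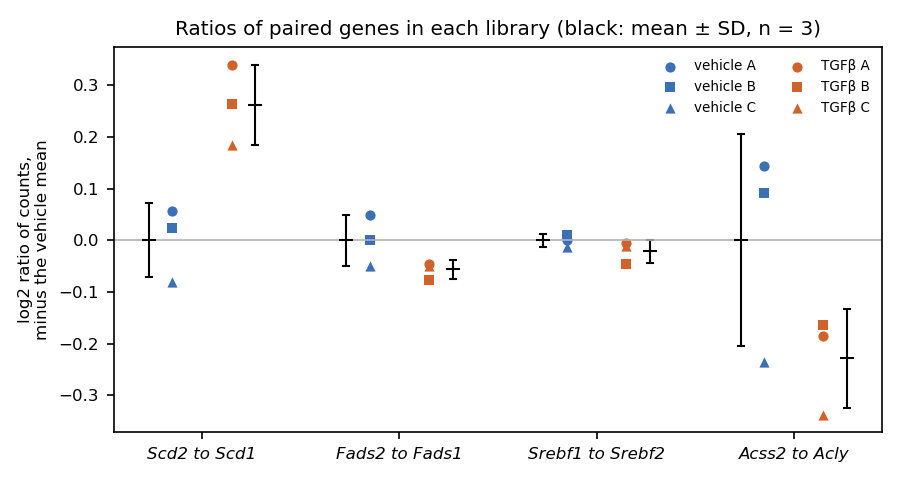
Log2 ratio of the counts of 4 gene pairs in each library, less the mean of the vehicle libraries; blue symbols are vehicle, orange symbols TGFβ, and black bars give the mean ± SD of 3 libraries. In *Scd2* to *Scd1* alone of the 4 pairs, all TGFβ libraries lie above all vehicle libraries.

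Genes around the module changed in both directions. Of 53 genes in the related lists, 51 were in the table and 47 were tested, of which 16 rose and 10 fell (20.5% and 20.1% of all tested genes). Of 4 further cholesterol synthesis genes, 1 rose. *Cyp51*, lanosterol demethylase, stood at 325.4, 300.6 and 262.2 CPM in vehicle and 418.2, 408.4 and 398.9 CPM in TGFβ libraries, a log2 fold change of 0.46 ± 0.076 (adjusted p = 0.00231). Its groups were well apart, and the value exceeded those of all 29 members. Of 8 genes of SREBP processing and feedback, 3 rose and 1 fell: *Sec23a*, a coat protein of the vesicles that leave the endoplasmic reticulum, rose by 0.52 ± 0.047 (log2, adjusted p = 1.31e-04), *Insig2*, the other Insig gene, fell by 0.18 (adjusted p = 0.0225; 0.0836 without vehicle B, 0.0599 without TGFβ B and 0.0512 with DESeq2), and *Scap*, the sterol-sensing escort, was at 0.01 (95% interval -0.098 to 0.13).

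Of 10 genes of sterol uptake, trafficking and storage, 3 rose and 4 fell (20.5% and 20.1% of all tested genes). *Lrp8*, a lipoprotein receptor, stood at 12.9, 11.2 and 10.2 CPM in vehicle A, B and C and at 26.9, 24.6 and 24.9 CPM in TGFβ A, B and C. All TGFβ libraries were far above all vehicle libraries, and its log2 fold change of 1.16 ± 0.089 was the largest rise among the related genes tested (adjusted p = 6.8e-05, edgeR).

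Of 7 genes of the sterol sensor LXR and sterol efflux, 4 fell and 2 rose (20.1% and 20.5% of all tested genes). *Abca1*, which exports cholesterol to apolipoproteins, stood at 89.5, 86.2 and 88.0 CPM in vehicle and 35.0, 38.8 and 26.8 CPM in TGFβ libraries, and fell by 1.39 on the log2 scale (SE 0.12, adjusted p = 9.5e-05). *Mylip*, which encodes a ubiquitin ligase, and *Nr1h3*, which encodes an LXR, fell by 0.96 and 0.68 (adjusted p = 3.1e-05 and 4.53e-04, edgeR). *Apoe*, an apolipoprotein, fell by 1.47 (adjusted p = 0.00582, edgeR). *Apoe* was highest in vehicle C, at 291.8 CPM against 153.5 and 165.4 CPM in vehicle A and B. *Abcg1*, another sterol exporter of the list, went the other way, from 6.42 ± 0.67 to 11.9 ± 2.26 CPM (SD, n = 3 per group), a log2 fold change of 0.89 (adjusted p = 0.00271). Of 18 tested genes of other fatty acid synthesis and supply, 7 rose and 1 fell (20.5% and 20.1% of all tested genes). The one that fell was *Acacb*, the paralogue of *Acaca* whose product acts at mitochondria, from 9.04 ± 0.64 to 5.29 ± 0.51 CPM (SD, n = 3 per group), a log2 fold change of -0.77 (adjusted p = 8.31e-04). *Hacd1*, a dehydratase of very long chain fatty acid synthesis, rose by 0.52 (adjusted p = 9.01e-04).

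**Figure D5:**
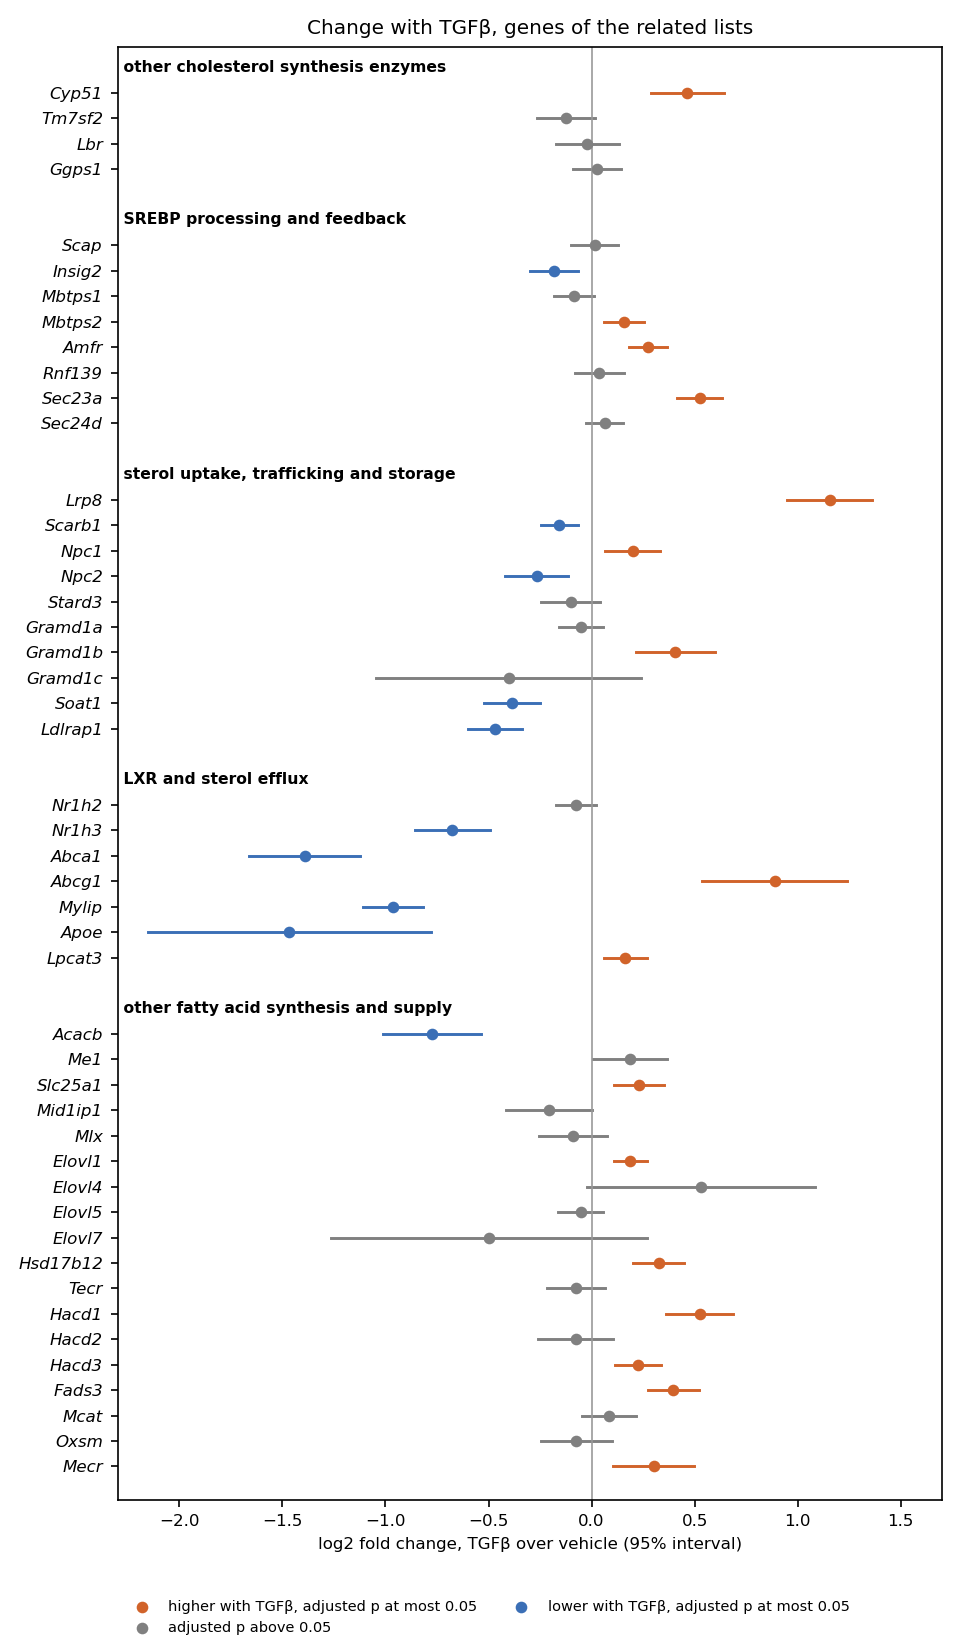
Log2 fold change (TGFβ over vehicle) with its 95% interval for the 47 tested genes of the related lists; orange marks genes called higher, blue genes called lower and grey the others at an adjusted p of 0.05. Values run from -1.47 (*Apoe*) to 1.16 (*Lrp8*), a wider span than the -0.15 to 0.40 of the 29 synthesis genes.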

How the data were processed

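RNA-seq was performed on mRNA from primary cardiac fibroblasts, 3 vehicle and 3 TGFβ libraries. Per the study's methods, stranded poly(A) libraries were sequenced as single-end reads of 75 bases, the submitters' processing notes name mm10 and DESeq2, and the aligner, the counter, its strand setting and the annotation are not given in the sources used here. The deposited values are whole-number counts of reads per gene that the authors did not normalize. The same table holds the authors' mean, fold change, standard error, test statistic and p-values, which were not used. Its count columns name the group but no replicate number. Replicates differed by more than counting noise (chi-square per gene 8.00 to 27.3), so all 6 were kept as separate libraries.

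Counts were scaled by TMM, filtered with filterByExpr and tested with edgeR 4.0.16 (quasi-likelihood, R 4.3.3) over all 14334 genes kept, with Benjamini-Hochberg adjustment. The standard error is the log2 fold change over the square root of F, and CPM is over TMM-scaled library sizes. Depth was 27851677 to 31072338 counts, and each member had at least 569 counts in every library. Of the gene IDs, 25086 of 25140 matched GENCODE M21, which gave lengths and overlapping genes. Ratios of gene pairs were compared with an exact permutation test. The steps were tested on simulated counts.

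Alternatives were DESeq2 size factors or upper quartile scaling in edgeR, DESeq2 1.42.0, limma-voom (limma 3.58.1), no filter, a filter of 1 CPM in 3 libraries, an adjusted p of 0.01, and each library left out in turn. The members and gene lists were chosen with earlier results of these data known. Every member is named. Of the related lists, the genes named are those called whose log2 fold change reached 0.5 in either direction, with a mean of at least 1 CPM, with *Cyp51*, *Scap*, *Insig2* and *Abca1*. Some results for genes of these lists are not reported here. *Ctsb*, *Rai1*, *Ggt7*, *Acat3*, *Gm5182* and *Gm13502* were named for the reads or positions they share with members, after the values were seen.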

Additional observations from a re-analysis of the deposited data

How the results depend on the processing

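The number of the 29 genes called higher was 8 in the main analysis and 6 to 9 with other scalings, tools and filters, and it ranged from 1 to 9 when 1 library was left out and was 1 at an adjusted p of 0.01 (*Acaca*). The number called lower was 0 in the main analysis and 1 (*Sc5d*) with upper quartile scaling and 1 with the 1 CPM filter, and it ranged from 0 to 1 when 1 library was left out. Over the members and the 12 alternatives, 311 comparisons kept their side of the threshold, 29 lost a call and 8 gained one; for the related genes these numbers were 540, 20 and 2. None changed the sign of a called gene. Among the members, only the 8 genes called in the main analysis could lose a call. Of these, *Acaca* kept it in all 12 alternatives, *Idi1* in 6 and the others in 7 to 10. The related genes called ranged from 12 to 16 higher and 7 to 11 lower. With 1 library left out, the share of all tested genes called higher was 15.4% to 18.6%, beside 20.5% with all 6. No paired analysis was possible because the count columns carry no replicate number. Each of the 29 genes had at least 569 counts in every library, and whether more depth would change a call was not tested.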
